A study of Ictidomys tridecemlineatus with 15 samples.

Results

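Late-stage primary retinal progenitor cells (late RPCs) were examined in the postnatal retina of the 13-lined ground squirrel (13LGS), a diurnal rodent whose retina is dominated by cones. The cells are those that the deposited annotation names late-stage primary RPC at postnatal day 1 (P1), P4, P8 and P12, 3856 of the 53394 cells of the whole series and of the 23430 cells at these 4 ages. Whole retinas of captive-bred litters, with the day of birth set as P0, were profiled with the 10x Chromium 3′ v3.1 assay, which counts each captured mRNA molecule by a unique molecular identifier (UMI). No allele, strain or treatment is given for any group, and whether a library came from fixed cells or frozen nuclei, or from 1 animal or several, is not given in the sources used here.

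A library is an age plus the suffix of the cell name, which gave 7 libraries: P1a, P1b, P4, P8a, P8b, P12a and P12b. The letters only tell libraries of 1 age apart. At P1 the cell names carry 2 suffixes where the labels list 1 sample, so the comparisons were also run without P1. P1 and P4 are called younger (3 libraries) and P8 and P12 older (4 libraries). Because nothing shows that libraries of 1 age came from separate animals, p-values measure only the spread between these libraries, which may be technical.

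Late RPCs are the progenitors of the second phase of retinal neurogenesis. They divide, replenish themselves through Notch signalling and its Hes targets, and pass through a neurogenic progenitor state on the way to late-born neurons. The last of them leave the cell cycle and become Müller glia, the radial glia of the mature retina, which keep many genes of the progenitor. Hes1, a Notch target that holds progenitors undifferentiated, and Id3, an inhibitor of basic helix-loop-helix factors, mark this class. The deposited gene names carry no row numbers and their number differs from that of the matrix rows, so that neither marker could be tied to a row: the check of the label against Hes1, Id3 and cell cycle markers could not be made, and genes are given by their row in the count matrix, counted from 1. Only the match between the cell table and the matrix was checked. Of 1954 late RPCs held out from the class averages, 1707 (87.4%) lay nearest the late RPC average among 12 annotated classes, against 140 of 1883 cells (7.43%) when the class names were shuffled over cells. Because the classes were named from these same counts, this shows that the table and the matrix are in the same order, and is no check of the name.

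The 7 libraries held 1369 to 4265 cells and 5068787 to 22995400 UMIs, and their late RPCs summed to 138366 UMIs (P8b) to 5111393 UMIs (P1a). The median late RPC held 1530.5 UMIs in P4 and 4787 UMIs in P12b, with the other libraries between these. No relation of depth with age was detected (Spearman's rho = -0.09, exact permutation p = 0.857; Pearson's r = -0.03, exact permutation p = 0.935; n = 7 libraries). Pairs of libraries shared 0 to 8 cell barcodes, and no pair shared a barcode among late RPCs. Doublets were not removed. Late RPCs above 2 times the median UMI count of their library and class numbered 137 in P4 and 1 in P12b, the highest and the lowest, and counts of called rows were repeated without such cells.

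One library stood apart. P8b held 50 late RPCs, the fewest of the 7, in a retina of 1369 cells of which 669 were photoreceptor precursors. To place each library by age, the 200 rows with the smallest p in the older against younger comparison without that library were taken, and the library's level was set on a scale from 0 (mean of the other younger libraries) to 1 (mean of the other older libraries). Late RPCs of P8b had a median position of 0.04 on this scale, within the range of P1a (-0.07), P1b (0.08) and P4 (0.22) and below P8a (0.74), P12a (1.02) and P12b (1.09). Of its 200 rows 12% lay nearer the older mean, against 75% in P8a. In the other cells of P8b the position was 0.70, close to the 0.75 of P8a, and in its late neurogenic progenitors it was 0.47 against 0.86 in P8a. The late RPCs of P8b were thus placed with those of P1 and P4, its late neurogenic progenitors midway, and the sum of all its cells but late RPCs near P8a. That sum mixes classes, so its position also depends on the make-up of a library. Photoreceptor precursors were 669 of 1319 such cells in P8b and 157 of 2680 in P8a. On the same sum P4, a younger library, lay at 0.49. Results that changed without P8b are therefore also given without it.

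**Figure D1:**
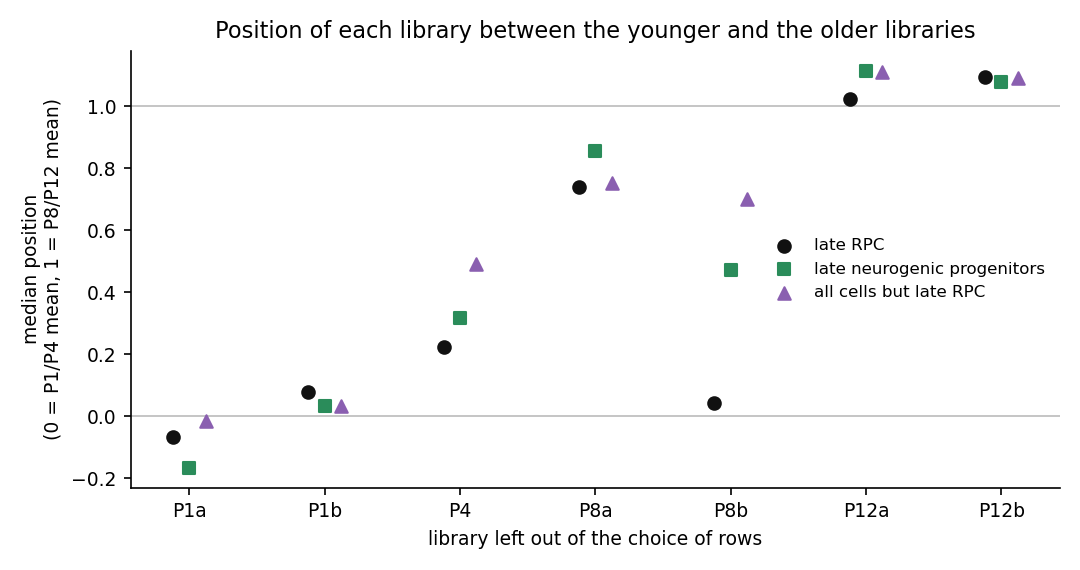
Median position of each library between the younger and the older libraries, for late RPCs (circles), late neurogenic progenitors (squares) and all cells but late RPCs (triangles), on a scale where 0 is the mean of the other P1 and P4 libraries and 1 that of the other P8 and P12 libraries. Late RPCs of P8b sit at 0.04, whereas the other cells of P8b, a sum over mixed classes, sit at 0.70 and those of P4 at 0.49.

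The first question was how the pool of late RPCs changed after birth. Late RPCs made up 34.0% of the cells of P1a (1084 of 3188, 95% Wilson interval 32.4 to 35.7%), 23.2% of P1b (21.9 to 24.6%) and 35.2% of P4 (33.7 to 36.7%). They made up 11.02% of P8a (10.0 to 12.2%), 3.65% of P8b (50 of 1369, 2.78 to 4.78%), 1.90% of P12a (1.53 to 2.35%) and 1.74% of P12b (69 of 3956, 1.38 to 2.20%). Every younger library was above every older library, and the gap between the P1 libraries exceeded their counting intervals, which, like all such intervals here, cover counting error only. The mean share was 30.8% ± 6.59 (SD, n = 3) in the younger and 4.58% ± 4.38 (SD, n = 4) in the older libraries.

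The share of late RPCs fell with age across the 7 libraries (Spearman's rho = -0.86, two-sided exact permutation p = 0.0190, adjusted p = 0.0381 over the 4 relations tested; Pearson's r = -0.88, exact permutation p = 0.0127, adjusted p = 0.0254). Without the pair of libraries farthest from the median age, P1a and P1b, r was -0.89 (exact permutation p = 0.0333, n = 5). Without P8b the rank relation did not pass (rho = -0.79, exact permutation p = 0.0778) while Pearson's r did (r = -0.90, exact permutation p = 0.0333). A share depends on the number of all other cells, so fewer late RPCs and more neurons cannot be told apart.

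The balance between the primary and the neurogenic state moved in the opposite direction. Late neurogenic progenitors, the daughters of primary RPCs that are about to form neurons, made up 18.7% of late progenitors (primary plus neurogenic) in P1a, 19.0% in P1b and 22.2% in P4. The value was 46.5% in P8a (42.6 to 50.5%), 39.8% in P8b (29.9 to 50.5%, 83 cells), 61.1% in P12a and 62.9% in P12b (55.8 to 69.5%, 186 cells). All 4 older libraries lay above the 3 younger ones, at 52.6% ± 11.2 (SD, n = 4) against 19.97% ± 1.97 (SD, n = 3). This share rose with age (rho = 0.97, exact permutation p = 0.00317, adjusted p = 0.0127; r = 0.98, exact permutation p = 0.00159, adjusted p = 0.00635; n = 7). It was 0.97 by rank without P8b (exact permutation p = 0.0111), and r was 0.99 without P1a and P1b (exact permutation p = 0.0333, n = 5).

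Müller glia, the glia into which the last progenitors turn, were then set against the late RPCs. As a share of Müller glia plus late RPCs they were 0 of 1084 cells in P1a, which allows a share of up to 0.277%, 2 of 868 cells (0.230%) in P1b and 0 of 1374 cells in P4, which allows up to 0.218%. They reached 22.1% (18.4 to 26.2%) in P8a, 81.8% (77.9 to 85.1%) in P12a and 80.5% (76.0 to 84.3%) in P12b. P8b held 0 Müller glia beside its 50 late RPCs, which allows a share of up to 6.0% and lies below the interval of P8a. The values thus fell near 0 in 4 libraries and near 80% in the P12 libraries, with P8a between. The relation with age did not pass by rank (rho = 0.72, exact permutation p = 0.0905, adjusted p = 0.0905) and passed by Pearson's r (r = 0.85, exact permutation p = 0.0286, adjusted p = 0.0381). Without P1a and P1b r was 0.90 (exact permutation p = 0.0667, n = 5), and without P8b rho was 0.85 (exact permutation p = 0.0556).

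**Figure D2:**
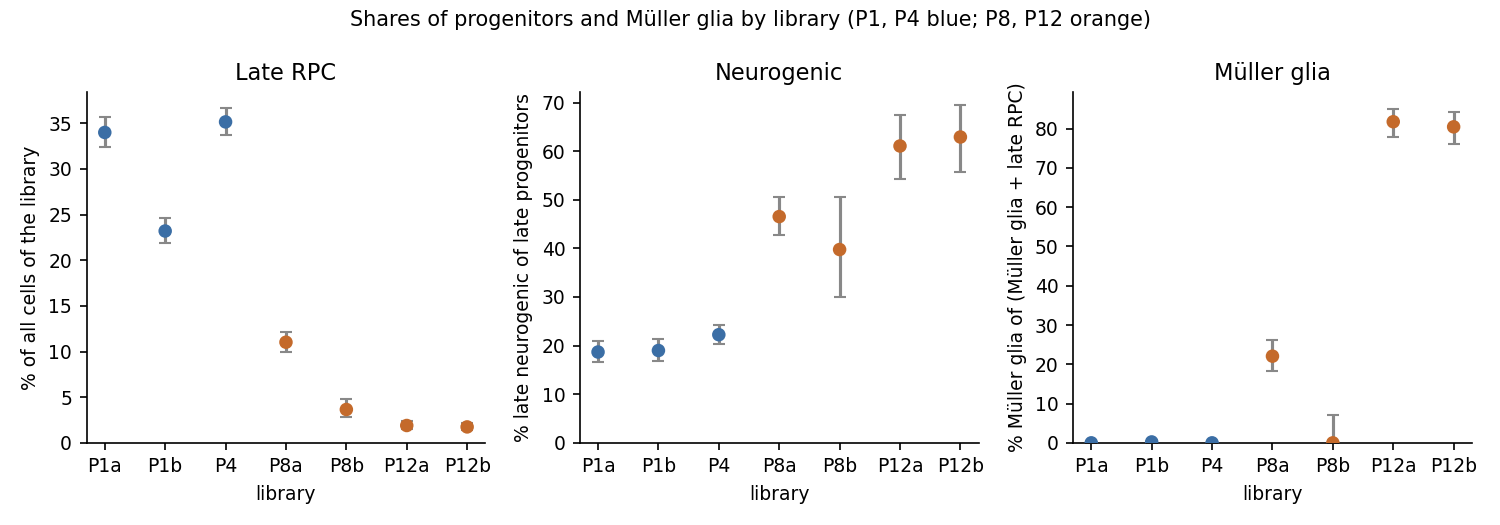
Late RPCs as a percentage of all cells, late neurogenic progenitors as a percentage of late progenitors, and Müller glia as a percentage of Müller glia plus late RPCs, in each of the 7 libraries (points, with 95% Wilson intervals as bars). The 3 younger libraries lie at 23.2 to 35.2% late RPCs and the 4 older ones at 1.74 to 11.02%, and P8b differs from P8a in holding no Müller glia.

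RNA content was compared within libraries, since depth differed between them. The median late RPC held 1.09 times the UMIs of the other cells in P1a, 1.04 times in P1b, 0.984 times in P4, 1.05 times in P8a, 0.851 times in P8b, 0.943 times in P12a and 1.15 times in P12b. Late RPCs were above the other cells in 4 of 7 libraries, and the mean log2 ratio of 0.02 ± 0.14 (SD, n = 7) lay within the spread between libraries (exact sign-flip permutation p = 0.766). With means in place of medians the log2 ratio turned to -0.21 ± 0.15, with late RPCs above the other cells in 1 of 7 libraries (exact sign-flip permutation p = 0.0312). The direction of this comparison therefore depended on how a cell was averaged.

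Each late RPC was next thinned at random to 1000 UMIs, leaving out the 75 shallower cells, to count genes at equal depth. The median late RPC then showed 678 detected rows in P1a, 663 in P1b and 654 in P4, against 607 in P8a, 663.5 in P8b, 615 in P12a and 590 in P12b. P8b alone among the older libraries reached the younger range. The mean was 665 ± 12.1 (SD, n = 3) in the younger and 619 ± 31.5 (SD, n = 4) in the older libraries. The relation with age did not pass by rank (rho = -0.73, exact permutation p = 0.0730, adjusted p = 0.0905) and passed by Pearson's r (r = -0.83, exact permutation p = 0.0381, adjusted p = 0.0381). It weakened to r = -0.71 without P1a and P1b (exact permutation p = 0.233, n = 5), and without P8b rho was -0.88 (exact permutation p = 0.0444). Without thinning the medians ran from 905.5 rows in P4 to 1913.5 rows in P1a.

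The profile of late RPCs was set beside those of the other classes of the same library, as a description, since the annotation was made from these same genes. Pearson's r across rows was taken on log2 of the thinned counts plus 1. It used rows with at least 10 counts in the pair of profiles together, so the set of rows differed between pairs. In the libraries where Müller glia numbered 94 or more, the class nearest to late RPCs was Müller glia, with r of 0.84 in P8a, 0.81 in P12a and 0.84 in P12b. In P1b it was the 52 early-stage RPCs (r = 0.85). In P1a (r = 0.80), P4 (r = 0.80) and P8b (r = 0.79) it was the late neurogenic progenitors. Retinal ganglion cells were the farthest class in all 7 libraries, at r = 0.28 to 0.38. Rows are not independent replicates, each profile was thinned to 50000 UMIs, and classes of 1 library may share its free RNA.

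Few rows were higher in late RPCs than in every other class of their library at all ages. Of 3100 rows with a mean level of at least 50 CPM in late RPCs, 322 (P12b) to 747 (P8b) were higher there than in every other class of the same library, but only 13 were so in all 7 libraries. The leading one, row 24522, lay at 43.8 CPM in P1a, 79.1 CPM in P1b, 49.4 CPM in P4, 45.9 CPM in P8a, 72.3 CPM in P8b, 70.8 CPM in P12a and 52.2 CPM in P12b. It exceeded the next class 1.30 times in P8a, the least, and 2.95 times in P12b, the most. Row 24819, at 657.7 to 1349 CPM in late RPCs, exceeded the next class 1.21 times in P8b and 2.28 times in P1a. In the older libraries with Müller glia, row 24819 lay at 611.5 CPM, 672.3 CPM and 458.6 CPM in those glia. Early-stage RPCs of embryonic day 26 (E26), the day before birth, held these rows at levels within the range of late RPCs. Row 24522 lay there at 50.2 and 54.6 CPM, and row 24819 at 708.2 and 922.9 CPM. Both rows were chosen for standing above every other class in all 7 libraries, so their presence at every age was part of the choice. Their levels in younger and older late RPCs overlapped.

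Within a library, few rows passed a limit set on the variation between late RPCs once depth was made equal. The variance of the median row was 0.92 (P8b) to 1.04 (P1b) times its mean, where counting error alone gives about 1. Counting error at this depth can hide differences at single rows, so the low number does not show that the cells were alike. After thinning to 1000 UMIs, the share of rows whose variance over cells exceeded 1.5 times their mean was 0.861% in P4, 0.965% in P8a, 1.05% in P1b and 1.58% in P1a. It was 3.54% in P12b, 3.61% in P12a and 3.86% in P8b, which hold 69, 81 and 50 late RPCs; their smaller cell numbers cannot be told apart from a wider spread. Of 817 rows measured in all 7 libraries 1 passed in each, row 17000, with variance at 6.34 to 20.2 times the mean. Row 17000 took 43015 to 141263 CPM of late RPCs and 51934 to 120001 CPM of the other cells, so that its abundance was not particular to the class.

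The next most variable row, row 11865, behaved differently. In late RPCs it lay at 4341 CPM in P1a, 3599 CPM in P1b and 3220 CPM in P4, and at 246 CPM in P8a, 3216 CPM in P8b, 556 CPM in P12a and 122 CPM in P12b. In the sum of the other cells of the same libraries row 11865 lay at 105 to 636 CPM. Late neurogenic progenitors, a part of that sum, lay higher, at 2469 CPM in P1a, 1898 CPM in P1b and 1359 CPM in P4. In the older libraries they lay at 131 to 581 CPM. Early-stage RPCs lay at 3526 CPM in P1b, and at 3357 and 3500 CPM in the 2 libraries of E26. Late RPCs of P8b therefore shared the younger level. Those of P8a, P12a and P12b were below it. They stayed above the other cells in P8a (119 CPM) and P12a (117 CPM) and lay near them in P12b (105 CPM). In P12a the few late RPCs highest for row 11865 held 64.5% of its UMIs. Row 19563, which varied with it, went from 1967 CPM in P1a, 1012 CPM in P1b and 1370 CPM in P4 to 290 CPM in P8a, 1576 CPM in P8b, 602 CPM in P12a and 157 CPM in P12b. Across single late RPCs rows 11865 and 19563 correlated at r = 0.67 in P1a, 0.63 in P1b, 0.47 in P4 and 0.47 in P8b, against 0.01 in P8a, 0.29 in P12a and 0.17 in P12b. Both rows were chosen after their values were seen.

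To follow this variation, the rows that moved with row 11865 from cell to cell were collected in P1a alone and measured in the other libraries. Of 1720 rows at 100 CPM or more in P1a, 102 correlated with row 11865 at r of at least 0.3, and 5 at -0.3 or below. Together the 102 rows took 81161 CPM of late RPCs in P1a, where they were chosen. Row 11865 itself was taken up after its values in all 7 libraries were seen, so the other 6 libraries are not independent of the choice. In these 6 libraries the 102 rows took 63837 CPM in P1b, 63916 CPM in P4, 31280 CPM in P8a, 69930 CPM in P8b, 37083 CPM in P12a and 21840 CPM in P12b. Late RPCs of P8a, P12a and P12b were thus at or below 37083 CPM, close to the Müller glia of the same libraries (30988, 33553 and 22887 CPM), and the other 4 libraries at or above 63837 CPM. In early-stage RPCs of E26 the same rows took 59594 and 63446 CPM.

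The cells within a library also differed in their level. Per 1000 UMIs of a late RPC, the 102 rows gave a median of 71 UMIs in P1a (10th to 90th percentile 39 to 128), 52 UMIs in P1b (31.1 to 101) and 49 UMIs in P4 (34 to 101). The median was 30 UMIs in P8a (22.9 to 41), 70.5 UMIs in P8b (41 to 103), 32 UMIs in P12a (22 to 40) and 22.5 UMIs in P12b (15 to 29). The variance over cells was 15.2, 12.2 and 11.96 times the mean in P1a, P1b and P4, 6.36 times in P8b, and 1.71 and 1.30 times in P8a and P12b, where counting error alone gives about 1. In P12a it was 6.66 times the mean, and 4 of its 81 cells held at least 60 such UMIs, up to 123, while no cell lay between 55 and 64. Cells with at least 60 numbered 629 of 1067 (59.0%) in P1a, 354 of 862 (41.1%) in P1b, 464 of 1323 (35.1%) in P4, 2 of 330 (0.606%) in P8a, 36 of 50 (72.0%) in P8b and 0 of 68 in P12b. The level of 60 UMIs is a point on a range and not a border between types: 91 to 121 late RPCs of each younger library lay between 55 and 64. Late neurogenic progenitors had medians of 59, 48 and 47 UMIs in P1a, P1b and P4, and 28 to 41 UMIs in the older libraries.

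**Figure D3:**
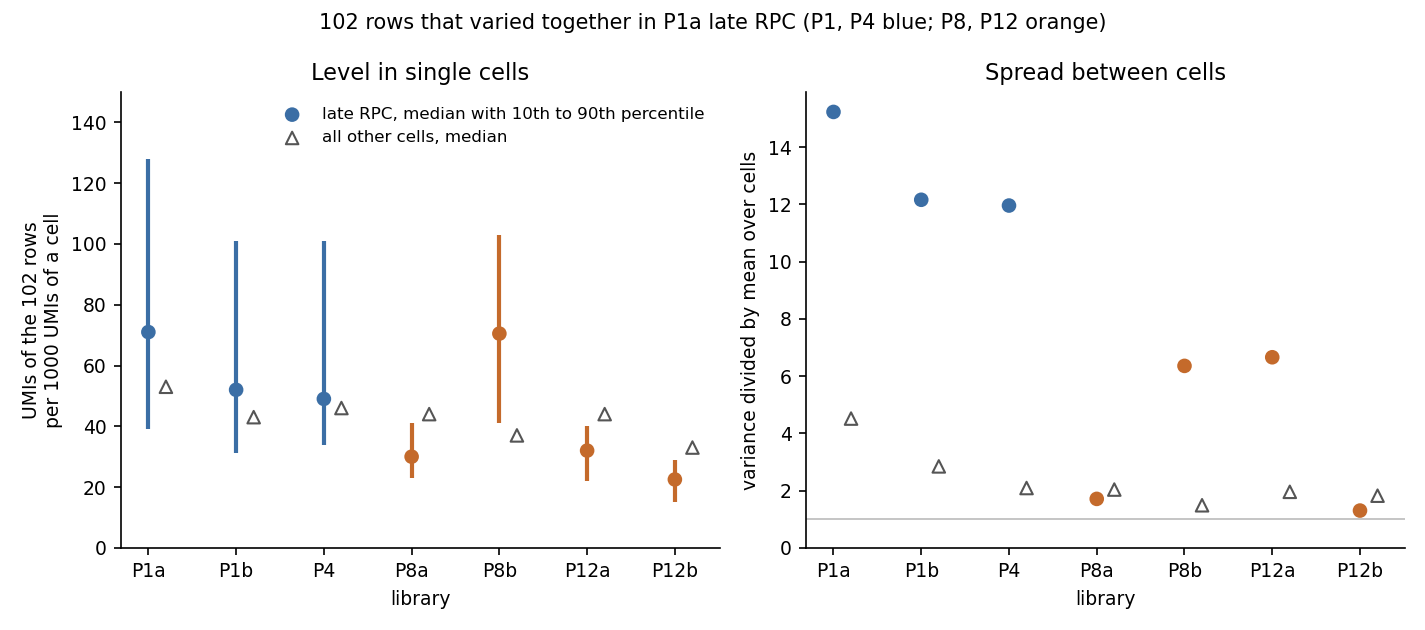
UMIs of the 102 rows per 1000 UMIs of a cell (left, median with 10th to 90th percentile in late RPCs, open triangles for the median of all other cells) and their variance over cells divided by the mean (right, same symbols, grey line at 1), by library. Late RPCs of P8b have a median of 70.5 UMIs, close to the 71 of P1a, whereas P8a, P12a and P12b have 30, 32 and 22.5.

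Expression was then compared between older and younger late RPCs on UMI counts summed per library. With edgeR's quasi-likelihood test, 238 of 8678 rows passed at a Benjamini-Hochberg adjusted p below 0.05 (2.74%), 109 higher (1.26%) and 129 lower (1.49%) in the older libraries. At an unadjusted p below 0.05 there were 1542 rows. The log2 change was at least 1 in size for 109 of the risers and 128 of the fallers. In 1198 rows (13.8% of those tested) the younger and older libraries did not overlap, 538 higher (6.2%) and 660 lower (7.61%). This count depended on single libraries: 891 of 10335 rows passed without P8b (8.62%), 333 higher (3.22%) and 558 lower (5.4%), and 235 of the 238 rows were among them. At a log2 change of at least 1 in size, 318 of these were higher (3.08%) and 543 lower (5.25%). Without P1a 3 rows passed, without P12a 10, without P8a 64, without P12b 65, without P1b 75 and without P4 96. With both P12 libraries left out no row passed by edgeR's quasi-likelihood test, although 1147 had an unadjusted p below 0.05.

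**Figure D4:**
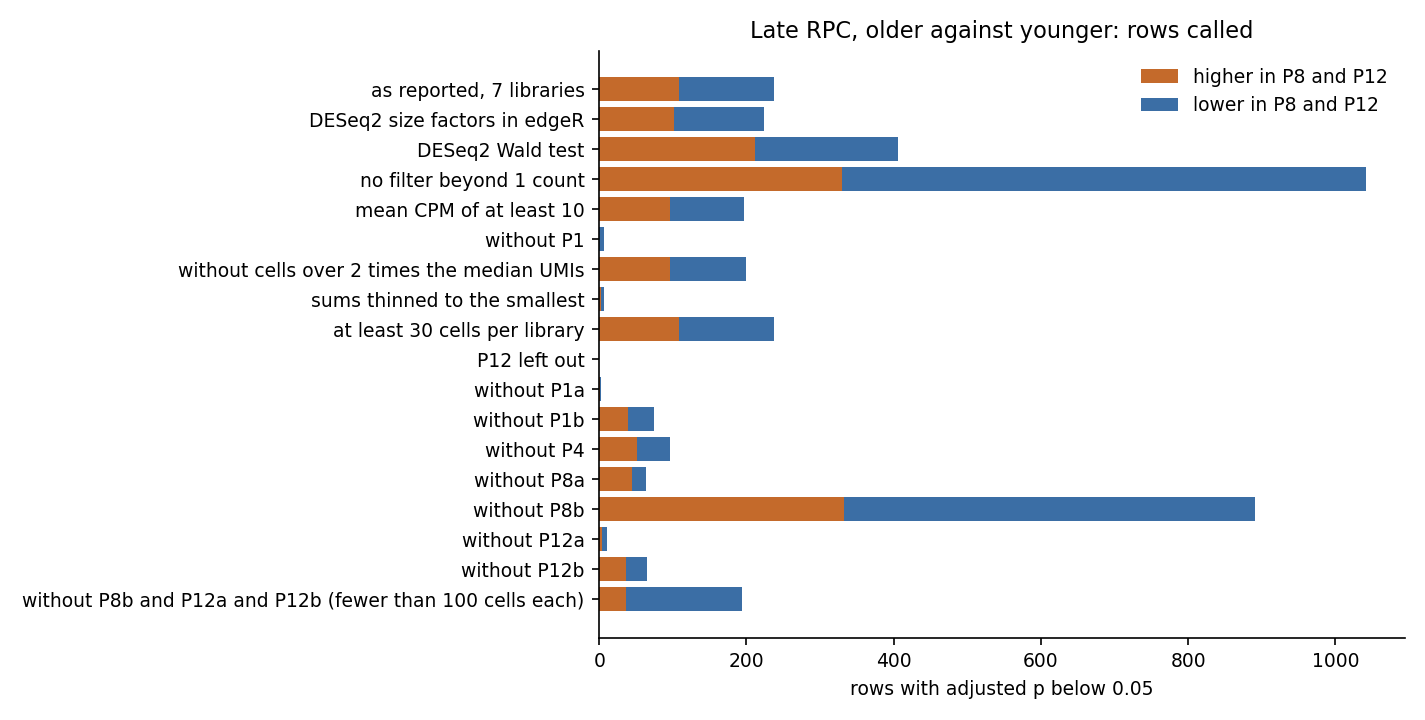
Number of rows called higher (orange) or lower (blue) in late RPCs of P8 and P12 than of P1 and P4 under each setting, with the reported fit of 7 libraries at the top (109 higher, 129 lower). The bar without P8b reaches 891 rows and the bar without P1a 3 rows.

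Among rows with at least 50 CPM in the higher group and no overlap, row 1933 showed the largest rise. It lay at 0.96 CPM in P1a, 0.54 CPM in P1b and 2.31 CPM in P4, and at 39.0 CPM in P8a, 21.3 CPM in P8b, 78.1 CPM in P12a and 126.7 CPM in P12b, with the trimmed mean of M-values (TMM) used to scale libraries here and in the comparisons that follow. All older libraries were above all younger ones, P8b included, where the value rests on 3 UMIs. The means were 66.3 ± 46.7 CPM (SD, n = 4) and 1.27 ± 0.92 CPM (SD, n = 3), a log2 change of 5.77 (SE 0.63, edgeR adjusted p = 0.00738). Without P8b the log2 change of row 1933 was 5.96 (SE 0.58, edgeR adjusted p = 0.000167). On the unscaled counts, row 1933 lay at 31.6 CPM, 45.3 CPM and 53.1 CPM in Müller glia of P8a, P12a and P12b, and at 11.9 to 16.6 CPM in late neurogenic progenitors of the older libraries. In late RPCs it was above both classes in each of these libraries, in P8b on 3 UMIs against 1 UMI in late neurogenic progenitors.

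Row 2942 rose from 1.15 CPM in P1a, 7.60 CPM in P1b and 6.16 CPM in P4 to 72.1 CPM in P8a, 49.7 CPM in P8b, 302.2 CPM in P12a and 33.3 CPM in P12b, a log2 change of 4.51 (SE 0.79, edgeR adjusted p = 0.0168). P12a stood far above the other older libraries. The call of row 2942 was lost without P12a (log2 change 3.46, edgeR adjusted p = 0.0561), without P1a (3.97, edgeR adjusted p = 0.0664) and without P4 (4.70, edgeR adjusted p = 0.0501). The other cells of the same libraries moved alike, from 2.7 to 29.6 CPM (unscaled) in the younger libraries to 96.6 CPM in P8a, 54.8 CPM in P8b, 158.1 CPM in P12a and 19.2 CPM in P12b. Row 2942 was among the rows of the later test against all other cells of the same libraries, and its result there is not given here. The cause of its change was not tested.

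The largest negative change among such rows was that of row 13274. It lay at 49.6 CPM in P1a, 130.1 CPM in P1b and 119.1 CPM in P4, and at 1.18 CPM in P8a, 7.10 CPM in P8b, 5.21 CPM in P12a and 6.67 CPM in P12b, with no overlap. Each of the older values rests on 1 or 2 UMIs. The means were 99.6 ± 43.6 CPM (SD, n = 3) and 5.04 ± 2.70 CPM (SD, n = 4), a log2 change of -4.77 (SE 0.60, edgeR adjusted p = 0.00738). The other cells of these libraries showed the same step on the unscaled counts, from 35.2, 92.7 and 99.9 CPM in the younger libraries to 1.3 to 3.9 CPM in the older ones, so that the lower level of row 13274 was also seen outside late RPCs. In early-stage RPCs of E26 it lay at 4.17 and 3.71 CPM (unscaled), as low as in the older libraries, so that the high level was seen in the P1 and P4 libraries and in neither E26 nor P8 and P12. Without P1, where P4 is the only younger library and is assumed to vary like the others, row 13274 still passed (log2 change -4.99, edgeR adjusted p = 0.00825), whereas row 1933 (4.76, edgeR adjusted p = 0.129), row 2942 (4.12, edgeR adjusted p = 0.392) and row 9081 (-3.53, edgeR adjusted p = 0.583) did not.

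Row 9081 fell from 91.6 CPM in P1a, 72.5 CPM in P1b and 48.5 CPM in P4 to 1.18 CPM in P8a and 28.4 CPM in P8b, and it had no UMI in P12a and P12b, where 3 UMIs would give 15.2 CPM and 8.71 CPM unscaled. P8b was the highest of the older libraries. The log2 change of row 9081 was -4.26 (SE 0.75, edgeR adjusted p = 0.0175), and without P8b it was -6.51 (SE 0.68, edgeR adjusted p = 0.000193). It no longer passed without P1a, P8a, P12a or P12b (edgeR adjusted p = 0.0664, 0.0842, 0.0815 and 0.0536) or with DESeq2's Wald test (adjusted p = 0.139). In the sum of the other cells row 9081 was low at every age, at 8.2 to 11.2 CPM (unscaled) in the younger and 1.6 to 5.7 CPM in the older libraries. That sum mixes classes. Late neurogenic progenitors lay at 65.2, 45.0 and 22.2 CPM (unscaled) in P1a, P1b and P4. They lay at 35.6 CPM in P8b, on 3 UMIs, and at 0 to 3.46 CPM in the other older libraries. Early-stage RPCs of E26 lay at 87.8 and 104.2 CPM (unscaled).

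**Figure D5:**
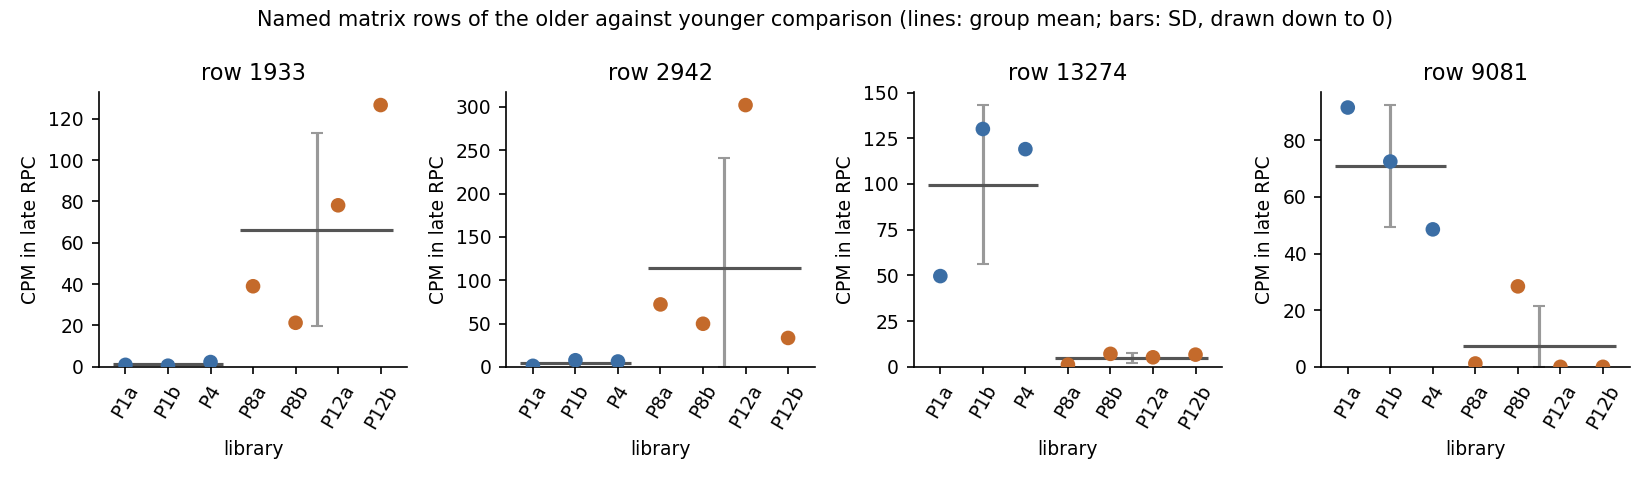
Level of the 4 named rows (CPM with TMM-scaled library sizes) in late RPCs of each library, as points, with the mean of the 3 younger and the 4 older libraries (lines) and the SD (bars, drawn down to 0). Rows 1933 and 2942 are higher and rows 13274 and 9081 lower in every older library, and P8b is the older library nearest the younger ones for row 9081.

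Averaged by age, the called rows moved mostly in steps of 1 direction. The 109 risers had a median level of 9.76 CPM at P1, 14.3 CPM at P4, 39.6 CPM at P8 and 62.9 CPM at P12, and 61 of them rose at every step. The 129 fallers had medians of 82.0, 60.5, 24.3 and 12.8 CPM, and 93 of them fell at every step. The rows were chosen on these libraries, so these medians describe the choice. The same risers had a median log2 change (older against younger, pooled UMIs) of 2.07 in late RPCs, 1.45 in late neurogenic progenitors and 1.19 in all other cells. For the fallers the medians were -2.29, -2.05 and -0.67, against -0.11, -0.14 and 0.02 over all 8678 rows tested. The 3 sets of cells come from the same libraries.

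The 102 rows that varied with row 11865 moved little past the threshold in the 7 libraries and mostly did so without P8b. With all libraries 5 of the 102 rows were lower in the older libraries (4.90%, against 1.49% of all rows tested) and 0 were higher, with a median log2 change of -1.56 against 0.01 over all rows. Without P8b 90 of the 102 were lower (88.2%, against 5.4% of all rows) and 0 higher, with a median of -2.58. Row 11865 itself had a log2 change of -1.86 with 7 libraries (SE 0.78, edgeR adjusted p = 0.235) and of -3.57 without P8b (SE 0.42, edgeR adjusted p = 0.000319). The log2 change of row 19563 was -1.14 (SE 0.56, edgeR adjusted p = 0.316) with 7 libraries and -2.02 without P8b (SE 0.40, edgeR adjusted p = 0.00662). The 102 rows had to reach 100 CPM in P1a, 1 of the younger libraries. They also had to follow row 11865, which was taken up after its values in all libraries were seen. The rows tested as a whole had no such filter, so the shares set side by side are not a like comparison. These counts are therefore no independent evidence of a direction of the group with age.

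Postnatal day was also fitted as a number. With this trend in edgeR, 454 of 8678 rows passed (5.23%), 209 rising (2.41%) and 245 falling (2.82%). Without P8b 756 rows passed, fewer than the 891 of the 2 age groups without it. The count was 114 without P1a, 121 without P12b, 157 without P12a, 160 without P4, 272 without P8a and 19 without both P1 libraries. Row 1933 rose by a log2 value of 0.64 per day (SE 0.05, edgeR adjusted p = 0.000357) and row 2942 by 0.50 per day (SE 0.08, edgeR adjusted p = 0.00710), a call lost without P12a (edgeR adjusted p = 0.0923) and without P1 (0.133). Row 9081 changed by -0.52 per day (SE 0.09, edgeR adjusted p = 0.00710). The slope of row 7145 was -0.53 per day (SE 0.10, edgeR adjusted p = 0.0158) and -0.72 per day without P8b (edgeR adjusted p = 0.00235). Its call was lost without P1a, P12a or P12b (edgeR adjusted p = 0.0953, 0.0695 and 0.0626), without P1 (0.155) and with log2 day (0.0827). It lay at 348.7 CPM in P1a, 121.7 CPM in P1b, 108.3 CPM in P4, 3.54 CPM in P8a and 92.4 CPM in P8b, with no UMI in P12a and P12b, where 3 UMIs would give 15.2 CPM and 8.71 CPM unscaled. P8b again lay near the younger libraries and P8a did not. In late neurogenic progenitors row 7145 showed the same split between the P8 libraries, at 94.9 CPM (unscaled) in P8b and 1.4 CPM in P8a.

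Whether late RPCs changed with age in another way than late neurogenic progenitors of the same libraries was tested as a class by age term. By edgeR's quasi-likelihood test with the library as a block, 73 of 9366 rows passed (0.779%), 29 changing more upward in late RPCs (0.31%) and 44 more downward (0.47%). The count was 21 by DESeq2, 230 without P8b, 17 without P1a, 17 without P1b, 27 without P12b and 42 without P12a. Row 29595 lay at 30.1 to 91.2 CPM in younger late RPCs and at 281.5 CPM in P8a, 62.2 CPM in P8b, 326.1 CPM in P12a and 174.1 CPM in P12b, while late neurogenic progenitors stayed at 21.5 to 54.7 CPM in all 7 libraries. The difference between the 2 log2 changes of row 29595 was 1.87 (SE 0.32, edgeR adjusted p = 0.00135). Müller glia were higher still for row 29595, at 414.7 CPM, 597.1 CPM and 245.7 CPM (unscaled) in P8a, P12a and P12b.

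Among the rows that could be named, row 18972 gave the largest difference downward. Late RPCs lay at 3.13 to 5.10 CPM in the younger libraries and at 2.37 CPM in P8a, 20.4 CPM in P12a and 9.86 CPM in P12b, with no UMI in P8b, where 3 UMIs would give 21.7 CPM unscaled, more than the level of the neurogenic progenitors of that library. Late neurogenic progenitors went from 6.56 to 10.3 CPM to 91.2 CPM in P8a, 10.3 CPM in P8b, 437.7 CPM in P12a and 365.3 CPM in P12b. The difference of the log2 changes of row 18972 was -3.94 (SE 0.53, edgeR adjusted p = 8.68e-05). A like pattern held in row 6326, at 0 (P12a, where 3 UMIs would give 15.2 CPM) to 17.7 CPM in all 7 late RPC sums while late neurogenic progenitors reached 51.7 to 187.6 CPM in the older libraries (difference -2.74, SE 0.48, edgeR adjusted p = 0.00163). Levels of row 27526 were higher in late neurogenic progenitors than in late RPCs in 6 of 7 libraries, P8b being the exception, and rose more in late RPCs. In row 27526 the older mean of late RPCs was 91.3 ± 60.8 CPM (SD, n = 4) and the younger one 17.8 ± 5.01 CPM (SD, n = 3), against 154.7 ± 107.1 CPM and 88.5 ± 24.9 CPM in late neurogenic progenitors (difference 1.498, SE 0.31, edgeR adjusted p = 0.0100). The call of row 27526 was lost without P1a, P1b or P12b (edgeR adjusted p = 0.309, 0.0758 and 0.179), without P8b, P12a and P12b together (0.301) and with DESeq2's Wald test (adjusted p = 0.201). Without P1 no row passed, these 4 included, although 372 had an unadjusted p below 0.05: edgeR adjusted p was 0.227 for row 29595, 0.266 for row 18972, 0.669 for row 6326 and 1 for row 27526.

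The same test against all other cells of the library asked which changes were not those of the sum of these cells. That sum mixes classes whose make-up differed between libraries, so its change with age also depends on the make-up. In edgeR 676 of 16387 rows passed (4.13%), 187 changing more upward in late RPCs (1.14%) and 489 more downward (2.98%). The balance of directions depended on scaling: the median log2 difference over all rows was -0.14 under TMM scaling. Size factors from DESeq2 moved it to 0.02 and gave 268 upward and 272 downward. DESeq2's own test called 230 rows, 139 upward and 91 downward. Directions of single rows are therefore relative to a median that is not at 0. The number of rows was 1440 without P4 and 1185 without P8b, and 161 without P12b, 250 without P1a, 250 without P12a, 324 without P8a and 364 without P1b.

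Row 20318 rose in late RPCs from 2.66 CPM in P1a, 1.97 CPM in P1b and 9.86 CPM in P4 to 52.6 CPM in P8a, 19.3 CPM in P8b, 58.9 CPM in P12a and 78.9 CPM in P12b, while the other cells moved from 14.2 to 17.8 CPM to 20.98 to 25.8 CPM. The difference of the log2 changes of row 20318 was 3.12 (SE 0.44, edgeR adjusted p = 0.000274), and Müller glia lay at 59.7 to 119.4 CPM (unscaled). The level of row 24868 was low in late RPCs throughout, at 1.99 to 3.00 CPM in the younger and 2.92 to 25.7 CPM in the older libraries, while the other cells had a mean for row 24868 of 127.2 CPM in the younger libraries (SD 37.7, n = 3) and of 65.3 CPM in the older ones (SD 14.9, n = 4), a difference of 3.32 (SE 0.47, edgeR adjusted p = 0.00028). Amacrine cells held up to 100.6 CPM (unscaled), and the part of free RNA in its late RPC counts was not tested.

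Row 9802 changed downward in late RPCs relative to the other cells. It lay at 120.8 CPM in P1a, 96.7 CPM in P1b and 90.1 CPM in P4, and at 15.9 CPM in P8a, 83.6 CPM in P8b, 29.4 CPM in P12a and 2.92 CPM in P12b. P8b once more was close to the younger libraries. The other cells had a mean of 31.8 CPM for row 9802 in the younger libraries (SD 20.4, n = 3) and 71.5 CPM in the older ones (SD 19.9, n = 4). The difference of the log2 changes of row 9802 was -3.50 (SE 0.47, edgeR adjusted p = 0.000148). Over all libraries, late neurogenic progenitors lay at 55.2 to 94.9 CPM (unscaled) and photoreceptor precursors at 126.2 to 265.7 CPM. Bipolar cells, a class of at least 10 cells in the older libraries only, lay at 75.6 to 186.7 CPM. The part of make-up in the change of the sum was not tested. The age change of row 3428 was smaller in late RPCs, where the younger mean was 1.45 ± 1.42 CPM and the older 13.5 ± 15.2 CPM, than in the other cells, with 1.48 ± 2.26 CPM and 107.1 ± 130.9 CPM (difference -3.08, SE 0.75, edgeR adjusted p = 0.0190). In P12a row 3428 lay at 315.9 CPM (unscaled) in the sum of the other cells and at 290.7 CPM in photoreceptor precursors. Müller glia, bipolar cells and amacrine cells of P12a lay at 42.4 to 52.6 CPM. The call of row 3428 was lost without P1b, P12a or P12b (edgeR adjusted p = 0.0872, 0.105 and 0.0841). Without P1 the calls of row 3428 (edgeR adjusted p = 0.53) and row 20318 (0.376) were lost and those of row 9802 (0.000975) and row 24868 (0.000437) were not.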

How the data were processed

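Per the study's methods and the submitters' processing notes, reads were processed with Cell Ranger 3.1.0 on the HiC_Itri_2 assembly and cells annotated in Seurat 4.0.4; for UMI minimums, gene minimums and doublet removal, settings are not given in the sources used. The deposited values were UMI counts per gene row and cell, whole numbers that are not normalized (34181 rows), with a table of each cell's age and class. Its columns of embedding coordinates were not used. The members, lists and rules were chosen with earlier results of these data known.

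Counts were summed per library and class, with at least 10 cells. The test of the sums was that of edgeR 4.0.16 under R 4.3.3 (filterByExpr, TMM, glmQLFit and glmQLFTest), with Benjamini-Hochberg adjustment over all rows tested. The SE is the log2 change divided by the square root of F. Cells were not tested singly as in the study's Seurat analysis, because cells are not replicates. Class by age terms had the library as a block. DESeq2 1.42.0 was an alternative. Relations over libraries used exact two-sided permutation tests. Cells were thinned to 1000 UMIs without replacement. Named rows passed the threshold with at least 50 CPM in the higher group and no overlap of libraries, and were the 2 largest changes in each direction. Row 11865, its group of 102 rows, row 19563 and row 17000 were taken up after their values were seen. Intervals are 95% Wilson intervals, and a count of 0 is given with the share or level of 3 counts. On simulated counts with the real rows and library sizes, the older against younger test recovered 19% of rows changed by a log2 of 1 and 92% of rows changed by 2 (8678 rows).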

Additional observations from a re-analysis of the deposited data

Results flagged for a closer look

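Among 18 sets of values from the 4 older libraries, 3 had a library far from the other 3 by Dixon's criterion, which chance meets in about 1 of 20 sets. One was row 2942, at 302.2 CPM in late RPCs of P12a, against 33.3 to 72.1 CPM in the other older libraries. In P8b row 9081 was at 28.4 CPM and row 7145 at 92.4 CPM, against at most 1.18 and 3.54 CPM in the others.

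The change with age differed between late RPCs and late neurogenic progenitors by the class by age term in 73 rows, among them row 29595 (difference of the log2 changes 1.87), row 27526 (1.498), row 18972 (-3.94) and row 6326 (-2.74). Against all other cells it differed in 676 rows, among them row 24868 (3.32), row 20318 (3.12), row 9802 (-3.50) and row 3428 (-3.08).

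Outside the 4 ages, cells with the same annotation made up 1.08% of 1 of the E26 libraries (42 of 3894 cells) and 0.133% of P17 (7 of 5277 cells), and 1 of 1841 cells of an embryonic day 21 library carried it. These cells entered no comparison.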

How the results depend on the processing

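Leaving out 1 library at a time gave rho of -0.96 to -0.79 for the late RPC share, 0.96 to 0.97 for the neurogenic share, 0.56 to 0.88 for the Müller glia share and -0.88 to -0.62 for genes per cell, with the direction kept. The late RPC share no longer passed without P8a, P8b, P12a or P12b. Without P1 the late RPC share (rho = -0.95) and the neurogenic share (rho = 0.95) no longer passed, with 5 libraries left. Both values are the largest in size that 5 libraries with these tied ages allow, so the rank test could not have passed. The log2 ratio of UMIs was -0.014 (without P12b) to 0.058 with 1 library left out, -0.0020 without P1a, and -0.21 with means. At 500 UMIs 2 rows in place of 1 varied in all libraries.

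For older against younger late RPCs (238 rows: 109 higher, 129 lower), leaving out 1 library gave 3 to 891 rows (1 to 333 higher, 2 to 558 lower). DESeq2 gave 406 (211, 195), no filter 1042 (330, 712), no P1 6 (0, 6), sums thinned to the smallest 6 (3, 3) and no P12 0 (0, 0). Without P8b, P12a and P12b, a choice made after seeing the data, 194 passed (37, 157), and P8a alone was assumed to vary like the others. For the trend (454 rows), leaving out 1 library gave 114 to 756 rows (63 to 290, 51 to 466), no filter 1191 (418, 773), no P1 19 (14, 5) and log2 day 98 (70, 28).

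Against late neurogenic progenitors (73 rows), leaving out 1 library gave 17 to 230 rows (6 to 105, 11 to 125), DESeq2 21 (8, 13), no filter 135 (54, 81), no P12 4 (2, 2), and 0 (0, 0) both without P1 and with thinned sums, where 372 and 140 rows had an unadjusted edgeR p below 0.05. Upward rows were 47 without high-UMI cells and 45 without P8b, P12a and P12b. Against all other cells (676 rows), leaving out 1 library gave 161 to 1440 rows (57 to 429, 104 to 1011). DESeq2 gave 230 (91 downward), a mean of 10 CPM 278 (150 downward), no P1 34 (16, 18), thinned sums 12 (10, 2), no P12 6 (3, 3), and no P8b, P12a and P12b 51 (10, 41). DESeq2's size factors gave 272 downward and no filter 331 upward.

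Of 242 values of the 16 named results under alternatives, 186 kept their side of the threshold, 56 lost it and none reversed. The cause was not tested, except that thinning and fewer libraries leave less to test. No paired analysis was possible because the cell names do not show the replicate numbers of the labels. Few late RPCs in P8b, P12a and P12b limit all older values.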
